A study of Mus musculus with 8 samples.

Results

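The genes described here are Rsrp1, the 4 CLK kinase genes Clk1, Clk2, Clk3 and Clk4, the SR protein genes Srsf2, Srsf5 and Srsf7, and the splicing factor genes Luc7l3 and Ddx5. They are 10 of the 45777 genes in the count table, and all 10 are among the 16750 genes that passed a filter on low counts. They were picked by name because Rsrp1 was higher in cells given EnPGC-1 than in those given Ctrl PIP, so the values of that contrast are given below as a description, with no test. RNA-seq counts came from primary CD8+ T cells of C57BL/6 mice, taken from lymph node and spleen. The cells of every group, the vehicle group included, had been activated with antibodies to CD3 and CD28. They were then kept for 48 hours with vehicle (DMSO) or with 1 of 3 compounds: EnPGC-1, Ctrl PIP, and SGC-CBP30, which blocks the bromodomains of CBP and p300, related histone acetyltransferases. Each of the 4 groups has 2 libraries, 8 in all. The labels state neither doses nor ages, so whether the compounds were matched by dose is not known here, and they do not say whether replicates were separate animals or cultures. The p-values weigh a difference between groups against the spread of libraries within groups, and this spread may therefore be only technical variation.

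SR proteins bind short sequences in exons through their RNA-recognition domains and help recruit the spliceosome through a tail rich in arginine and serine (the RS domain). CLK kinases phosphorylate RS domains, which releases SR proteins from nuclear speckles, their storage sites. Many genes of this system control their own output: they carry exons that introduce a premature stop codon, or introns that stay in the nuclear transcript, and such transcripts are degraded or held back. T cells use splicing switches during activation, with the alternative exons of CD45 as the textbook case. Counts per gene, as used here, sum all transcripts of a gene and do not separate productive from unproductive ones.

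The annotation shows how common such transcripts are in the set. In GENCODE mouse release M21 on GRCm38, all 10 genes have at least 1 transcript annotated as a retained intron, against 41.5% of 21951 protein-coding genes. A transcript annotated as subject to nonsense-mediated decay is present in 9 of the 10, against 20.8% of protein-coding genes. Rsrp1 is the exception, with 0. Clk1 has 7 retained-intron transcripts among 13 and Clk4 has 7 among 14. Rsrp1 lies at chr4:134923592-134927671 on the plus strand, and Luc7l3 at chr11:94287890-94321988 on the minus strand. Of the kinase genes, Clk1 lies at chr1:58410189-58424066 on the minus strand, Clk2 at chr3:89164795-89176921 on the plus strand, Clk3 at chr9:57750624-57765860 on the minus strand, and Clk4 at chr11:51261730-51281766 on the plus strand. Srsf2 lies at chr11:116849901-116853094 on the minus strand, Srsf5 at chr12:80945504-80950507 on the plus strand, Srsf7 at chr17:80200080-80207307 on the minus strand, and Ddx5 at chr11:106780355-106789185 on the minus strand. Clk3 shares 1284 exon bases (15.2% of its own) with the antisense gene Edc3. Srsf2 shares 460 exon bases (15.6%) with Mettl23 and 288 (9.74%) with Mfsd11, both on the other strand. For the counter, the strand setting is not given in the sources used, so the counts of Clk3 and Srsf2 are uncertain to that extent.

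Promoter sequences of 4 of the genes are printed as examples. Rsrp1, Luc7l3 and Clk4 were at their highest group mean with EnPGC-1, and Srsf2 at its highest with Ctrl PIP. This does not single them out: Clk1, Clk2, Clk3, Srsf5 and Ddx5 were also highest with EnPGC-1, and Srsf7 with Ctrl PIP. Clk4 was nearly as high with SGC-CBP30 (72.1 CPM) as with EnPGC-1 (75.4 CPM), unlike Rsrp1. Each is the RefSeq window of 300 bases on GRCm38.p6, from 250 bases before the start site to 50 after it, written 5′ to 3′ on the gene's strand. The windows are chr4:134923375-134923674 (plus strand) for Rsrp1, chr11:51262864-51263163 (plus) for Clk4, chr11:94321914-94322213 (minus) for Luc7l3 and chr11:116853045-116853344 (minus) for Srsf2. Start sites are those of RefSeq. The Clk4 window lies inside the GENCODE span given above, which begins at chr11:51261730, so the annotations place the start of Clk4 differently. Capitals mark TGACG or its complement CGTCA, the core of the cAMP response element (CRE), which CREB and ATF factors can bind.
Rsrp1: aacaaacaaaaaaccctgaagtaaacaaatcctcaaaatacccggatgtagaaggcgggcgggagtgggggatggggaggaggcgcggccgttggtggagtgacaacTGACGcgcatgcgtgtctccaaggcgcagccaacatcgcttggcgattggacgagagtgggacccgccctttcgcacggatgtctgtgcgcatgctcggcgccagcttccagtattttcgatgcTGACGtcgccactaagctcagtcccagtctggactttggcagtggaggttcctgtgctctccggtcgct
Clk4: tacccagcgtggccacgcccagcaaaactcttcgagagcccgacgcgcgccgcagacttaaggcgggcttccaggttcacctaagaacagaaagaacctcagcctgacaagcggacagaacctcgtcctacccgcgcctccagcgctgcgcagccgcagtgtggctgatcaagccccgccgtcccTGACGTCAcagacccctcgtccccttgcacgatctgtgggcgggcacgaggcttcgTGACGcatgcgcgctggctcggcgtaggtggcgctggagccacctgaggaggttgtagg
Luc7l3: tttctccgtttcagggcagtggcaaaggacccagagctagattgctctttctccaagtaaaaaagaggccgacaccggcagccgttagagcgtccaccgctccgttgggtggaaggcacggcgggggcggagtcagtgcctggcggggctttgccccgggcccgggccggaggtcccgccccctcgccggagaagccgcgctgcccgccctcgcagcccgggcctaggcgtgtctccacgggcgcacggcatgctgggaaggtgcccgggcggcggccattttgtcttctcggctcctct
Srsf2: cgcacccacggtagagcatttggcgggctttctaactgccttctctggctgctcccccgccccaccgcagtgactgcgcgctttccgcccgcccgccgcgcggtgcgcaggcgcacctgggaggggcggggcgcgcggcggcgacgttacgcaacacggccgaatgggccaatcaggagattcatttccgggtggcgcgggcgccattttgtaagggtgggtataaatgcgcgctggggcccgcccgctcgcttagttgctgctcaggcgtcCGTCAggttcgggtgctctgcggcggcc

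RefSeq windows were found for 9 of the 10 genes, all except Clk1, and Ddx5 had 3. Motifs were searched on both strands. TGACG was present for 6 genes (Rsrp1, Clk2, Clk3, Clk4, Srsf2 and Srsf5) and in 20.8% of all 32851 windows, or 29.3% of the 14964 windows of tested genes. In Rsrp1 its matches begin 143 and 19 bases before the start site (positions -143 and -19). The full palindrome TGACGTCA, which holds TGACG on each strand, occurred for 1 gene, Clk4, at positions -65 to -58, and in 1.79% of all windows and 2.85% of those of tested genes. GCATGCGC, the core bound by NRF1, occurred for Rsrp1, Clk4 and Srsf7 and in 2.71% of all windows (4.75% for tested genes). In Rsrp1 and Clk4 a match of it shares 1 base with a TGACG match. TATAAA occurred for Srsf2 and Ddx5 (13.6% of all windows, 7.85% for tested genes), and CCAAT for Rsrp1, Clk2, Srsf2 and Ddx5 (37.4% and 37.6%). These are matches of letters, not measured binding sites.

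Total counts per library ranged from 38890043 to 55491261, and between 18348 and 19057 genes were detected. Levels are CPM, the counts divided by the library's total and put on a common scale, with TMM library sizes, as mean ± SD over 2 libraries where a group is summarised. Across all genes, replicate 1 and replicate 2 stood far apart in the DMSO and EnPGC-1 groups. In each library, the deviations of 8903 expressed genes from their means followed transcript length to a different degree, with Spearman's rho of 0.56 and -0.60 in the DMSO libraries, 0.48 and -0.51 in the EnPGC-1 libraries, -0.52 and -0.19 in the Ctrl PIP libraries, and 0.53 and 0.50 in the SGC-CBP30 libraries. A positive value means that long transcripts were relatively high in that library. The ribosomal RNA entry Rn18s-rs5 was at 10074 CPM in DMSO replicate 2 and 9044 CPM in EnPGC-1 replicate 2, while the other 6 libraries had 1119 to 2311 CPM. The part of these library properties in the differences below was not tested, apart from the length and GC offsets described with single genes. All 10 genes of the CD8 T cell marker list were detected, with Cd8a at 904 to 1241 CPM. Detection alone does not tell cell types apart here, since every marker of the other cell type lists was also detected in some library.

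Rsrp1, which encodes a small arginine- and serine-rich protein whose function is little known, was highest in both EnPGC-1 libraries. It measured 370.0 and 349 CPM with DMSO, 473 and 504 CPM with EnPGC-1, 306 and 272 CPM with Ctrl PIP, and 382 and 336 CPM with SGC-CBP30. The 2 EnPGC-1 libraries were the highest of the 8, the 2 Ctrl PIP libraries were the lowest, and DMSO and SGC-CBP30 overlapped. The group means were 488 ± 22.0 CPM with EnPGC-1, 359 ± 15.0 with DMSO, 359 ± 32.4 with SGC-CBP30 and 289 ± 24.1 with Ctrl PIP (SD, n = 2 each). Against DMSO the fitted log2 fold change was 0.44 (SE 0.19, 95% interval -0.02 to 0.90) with EnPGC-1. This did not pass the test: p was 0.059 before and 0.998 after Benjamini-Hochberg adjustment over all genes in edgeR's quasi-likelihood test. Leaving out any 1 library gave 0.39 to 0.50 for that value, with adjusted p between 0.227 and 1. With Ctrl PIP the log2 fold change against DMSO was -0.31 (SE 0.19, 95% interval -0.78 to 0.15), and with SGC-CBP30 it was 0.00 (SE 0.19, 95% interval -0.46 to 0.46). EnPGC-1 and SGC-CBP30 differed by 0.44 (SE 0.19, 95% interval -0.02 to 0.91), which did not pass edgeR's test. Rsrp1 was chosen by its EnPGC-1 and Ctrl PIP libraries, so its p-values and intervals that use either group are not independent of that choice. The contrast that chose the set, EnPGC-1 against Ctrl PIP, was 0.76, a fold of 1.69, and ranged from 0.68 to 0.84 when 1 of its 4 libraries was left out. Its Pearson r with the length trend over the 8 libraries was 0.16, and the part of that trend in its level was not tested.

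**Figure D1:**
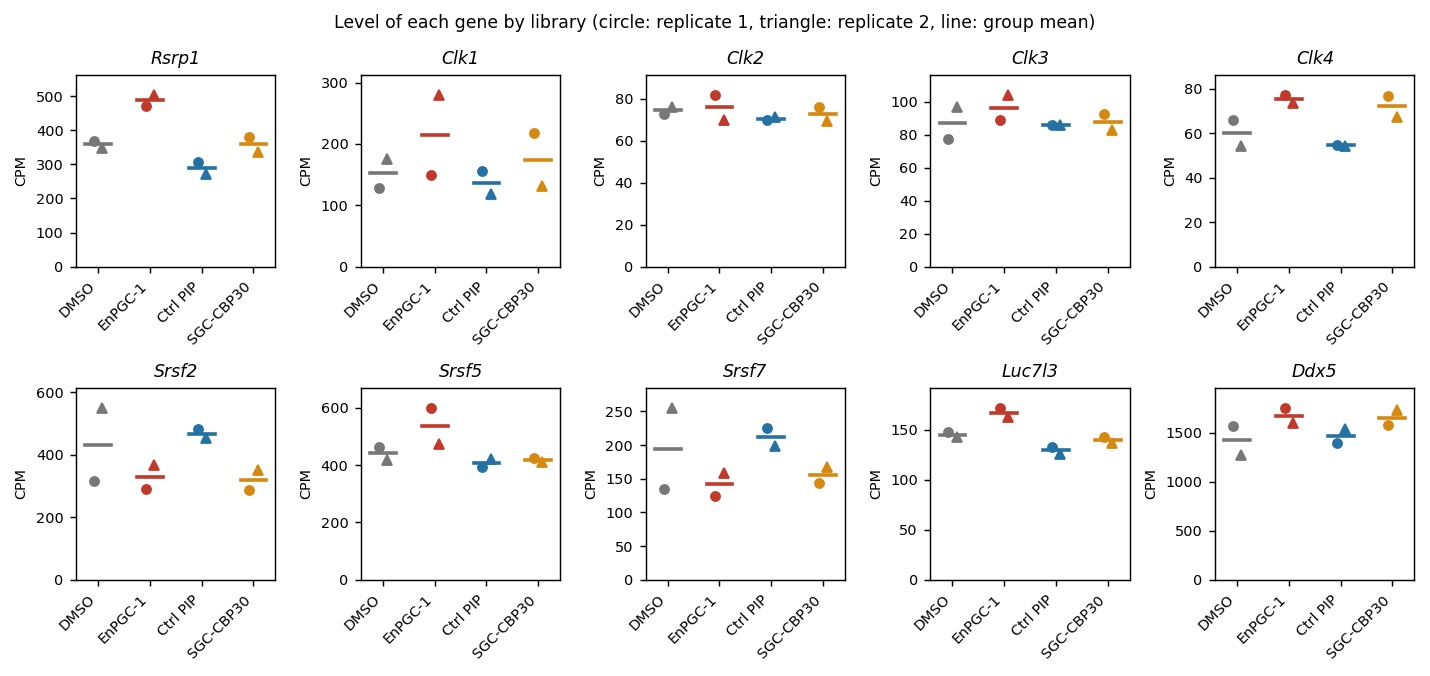
Level of each of the 10 genes in CPM (vertical axes from 0) in the 8 libraries, by group on the horizontal axis; circles are replicate 1, triangles replicate 2 and bars the group mean. Rsrp1 stands at 473 and 504 CPM with EnPGC-1 and at 382 CPM or less elsewhere, while Srsf2 and Srsf7 have their highest point in DMSO replicate 2.

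Luc7l3, a relative of the yeast U1 snRNP protein Luc7 that acts in recognition of the start of introns, had the same order of group means as Rsrp1 at a smaller size. Its levels were 147 and 143 CPM with DMSO, 171 and 162 CPM with EnPGC-1, 133 and 126 CPM with Ctrl PIP, and 143 and 137 CPM with SGC-CBP30. Both EnPGC-1 libraries were above all others and both Ctrl PIP libraries below all others. DMSO replicate 2 and SGC-CBP30 replicate 1 were equal to 3 digits. EnPGC-1 averaged 167 ± 6.32 CPM against 145 ± 3.32 with DMSO and 129.5 ± 4.93 with Ctrl PIP (SD, n = 2 each). The log2 fold change of EnPGC-1 against DMSO was 0.20 (SE 0.17, 95% interval -0.20 to 0.60), and that of Ctrl PIP was -0.16 (SE 0.17, 95% interval -0.56 to 0.23). EnPGC-1 and SGC-CBP30 differed by 0.25 (SE 0.17, 95% interval -0.14 to 0.65). None of these passed edgeR's test. With offsets for transcript length and GC content, an alternative added after the data were seen, EnPGC-1 against DMSO moved to 0.12 for Luc7l3, while for Rsrp1 it was 0.50. EnPGC-1 against Ctrl PIP was 0.36 for Luc7l3, given as a description. Its r with the length trend was 0.20.

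The 4 CLK kinases did not share a pattern. Clk4 measured 65.8 and 54.1 CPM with DMSO, 77.2 and 73.7 CPM with EnPGC-1, 54.8 and 54.3 CPM with Ctrl PIP, and 76.8 and 67.5 CPM with SGC-CBP30. All 4 libraries of EnPGC-1 and SGC-CBP30 were above all 4 of DMSO and Ctrl PIP. Of all genes, 9.83% were higher in both EnPGC-1 libraries than in both of DMSO, and 16.2% in both of SGC-CBP30. Against Ctrl PIP the shares were 20.7%, in the contrast that chose the set, and 31.5%. The log2 fold change of Clk4 against DMSO was 0.33 (SE 0.18, 95% interval -0.11 to 0.77) with EnPGC-1. With SGC-CBP30 it was 0.27 (SE 0.18, 95% interval -0.17 to 0.70), and with Ctrl PIP -0.14. SGC-CBP30 against Ctrl PIP gave 0.40 (SE 0.18, 95% interval -0.03 to 0.84), and EnPGC-1 against SGC-CBP30 gave 0.06 (SE 0.18, 95% interval -0.37 to 0.50). No Clk4 comparison passed the test. The values of EnPGC-1 and SGC-CBP30 against DMSO were 0.50 and 0.43 without DMSO replicate 1, and 0.20 and 0.13 without DMSO replicate 2. The Pearson r of its level with the length trend was 0.63 over the 8 libraries. With the same offsets the value for EnPGC-1 against DMSO was again 0.33.

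Clk1, whose transcripts are a known case of introns held in the nucleus until the kinase is needed, varied most over the libraries. Its levels were 128 and 176 CPM with DMSO, 149 and 279.8 CPM with EnPGC-1, 156 and 118 CPM with Ctrl PIP, and 217 and 132 CPM with SGC-CBP30. EnPGC-1 replicate 2 was the highest library and EnPGC-1 replicate 1 lay within the range of DMSO, so the groups overlapped. The ratio of the highest to the lowest library was 2.37, the largest among the 10 genes. The log2 fold change against DMSO was 0.50 (SE 0.40, 95% interval -0.45 to 1.45) with EnPGC-1 and became -0.03 without EnPGC-1 replicate 2. Clk1 with SGC-CBP30 also split, and its log2 fold change against DMSO there was 0.20. Over the 8 libraries its r with the length trend was -0.34.

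Clk2 was the steadiest gene of the set, with a highest-to-lowest ratio of 1.18. Its levels were 72.7 and 76.2 CPM with DMSO, 81.6 and 69.9 CPM with EnPGC-1, 69.7 and 71.2 CPM with Ctrl PIP, and 76.2 and 69.5 CPM with SGC-CBP30, and the groups overlapped except that both Ctrl PIP libraries were below both DMSO libraries. Clk3 measured 77.2 and 97.1 CPM with DMSO, 88.6 and 104 CPM with EnPGC-1, 85.9 and 86.0 CPM with Ctrl PIP, and 92.7 and 82.7 CPM with SGC-CBP30, and its groups overlapped in every comparison with DMSO. Their log2 fold changes with EnPGC-1 against DMSO were 0.03 for Clk2 and 0.14 for Clk3, and none of their comparisons passed the test. Their r with the length trend was 0.34 for Clk2 and -0.58 for Clk3. The intervals of EnPGC-1 against DMSO ran from -0.39 to 0.44 for Clk2 and from -0.33 to 0.62 for Clk3.

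Among the SR proteins, Srsf5 stood on the side of Rsrp1 and Srsf2 and Srsf7 on the other. Srsf5 measured 464 and 419 CPM with DMSO, 598 and 474 CPM with EnPGC-1, 394 and 420.3 CPM with Ctrl PIP, and 425 and 411 CPM with SGC-CBP30. Both EnPGC-1 libraries were above the other 6, the second of them by a small margin over DMSO replicate 1. The log2 fold change of EnPGC-1 was 0.28 (SE 0.21, 95% interval -0.22 to 0.78) against DMSO and 0.36 (SE 0.21, 95% interval -0.14 to 0.86) against SGC-CBP30. Neither passed edgeR's test. Without EnPGC-1 replicate 1 these values were 0.11 and 0.18, and without EnPGC-1 replicate 2 they were 0.43 and 0.51. The r of Srsf5 with the length trend was 0.36.

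Srsf2, one of the founding SR proteins and a constituent of nuclear speckles, was at 316 and 549 CPM with DMSO, 289.7 and 367 CPM with EnPGC-1, 484 and 453 CPM with Ctrl PIP, and 288 and 352 CPM with SGC-CBP30. DMSO replicate 2 was the highest library and DMSO replicate 1 was close to the EnPGC-1 and SGC-CBP30 libraries. Both Ctrl PIP libraries were above all 4 libraries of EnPGC-1 and SGC-CBP30. Srsf7, an SR protein with a zinc knuckle, showed the same layout. It measured 135 and 254 CPM with DMSO and 125 and 158 CPM with EnPGC-1. With Ctrl PIP it was at 225 and 198 CPM, and with SGC-CBP30 at 143 and 167 CPM. Of all genes, 21.7% were lower in both EnPGC-1 libraries than in both of Ctrl PIP, the contrast that chose the set. For SGC-CBP30 against Ctrl PIP the share was 30.2%. For Srsf2 the log2 fold change against DMSO was -0.40 (SE 0.31, 95% interval -1.14 to 0.34) with EnPGC-1, -0.43 (SE 0.31, 95% interval -1.17 to 0.31) with SGC-CBP30 and 0.11 with Ctrl PIP. For Srsf7 these values were -0.46 (SE 0.32, 95% interval -1.23 to 0.31), -0.33 (SE 0.32, 95% interval -1.10 to 0.45) and 0.12. No comparison of either gene passed the test, and the direction against DMSO depended on single DMSO libraries. Without DMSO replicate 2, EnPGC-1 against DMSO became 0.05 for Srsf2 and 0.07 for Srsf7. Without DMSO replicate 1, Ctrl PIP against DMSO became -0.21 for Srsf2 and -0.25 for Srsf7. SGC-CBP30 against Ctrl PIP, which leaves the DMSO libraries out of the contrast, gave -0.55 (SE 0.31, 95% interval -1.29 to 0.19) for Srsf2 and -0.45 (SE 0.32, 95% interval -1.22 to 0.33) for Srsf7.

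Both genes followed the length trend of the libraries, with Pearson r of -0.86 for Srsf2 and -0.80 for Srsf7 over the 8 libraries. Their longest transcripts are the shortest of the 10, at 1899 and 2403 bases. From short to long, r was then 0.16 for Rsrp1 (3051 bases), 0.34 for Clk2 (3168) and 0.36 for Srsf5 (3482). It was 0.63 for Clk4 (3543), 0.74 for Ddx5 (3593) and -0.58 for Clk3 (4130). The longest, Clk1 (4865) and Luc7l3 (5244), had -0.34 and 0.20, so r did not rise steadily with length. With the length and GC offsets, SGC-CBP30 against Ctrl PIP moved from -0.55 to -0.33 for Srsf2 and from -0.45 to -0.29 for Srsf7, and EnPGC-1 against DMSO moved from -0.40 to -0.21 and from -0.46 to -0.33. The part of the length trend in these differences was not tested beyond these values.

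Ddx5, a DEAD-box RNA helicase also called p68 that acts in splicing and transcription, was the most abundant of the 10. Its levels were 1574 and 1276 CPM with DMSO, 1751 and 1598 CPM with EnPGC-1, 1394 and 1536 CPM with Ctrl PIP, and 1581 and 1730.0 CPM with SGC-CBP30. DMSO replicate 2 was the lowest library, both EnPGC-1 libraries were above both DMSO libraries, and so were both SGC-CBP30 libraries. EnPGC-1 replicate 2 and SGC-CBP30 replicate 1 exceeded DMSO replicate 1 only by small margins. Of all genes, 9.83% were higher in both EnPGC-1 libraries than in both of DMSO, and 16.2% in both of SGC-CBP30. The log2 fold change against DMSO was 0.23 (SE 0.23, 95% interval -0.33 to 0.79) with EnPGC-1 and 0.22 (SE 0.23, 95% interval -0.34 to 0.78) with SGC-CBP30, and neither passed the test. Without DMSO replicate 1 these values were 0.41 and 0.39, and without DMSO replicate 2 they were 0.09 and 0.07. The r of Ddx5 with the length trend was 0.74.

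**Figure D2:**
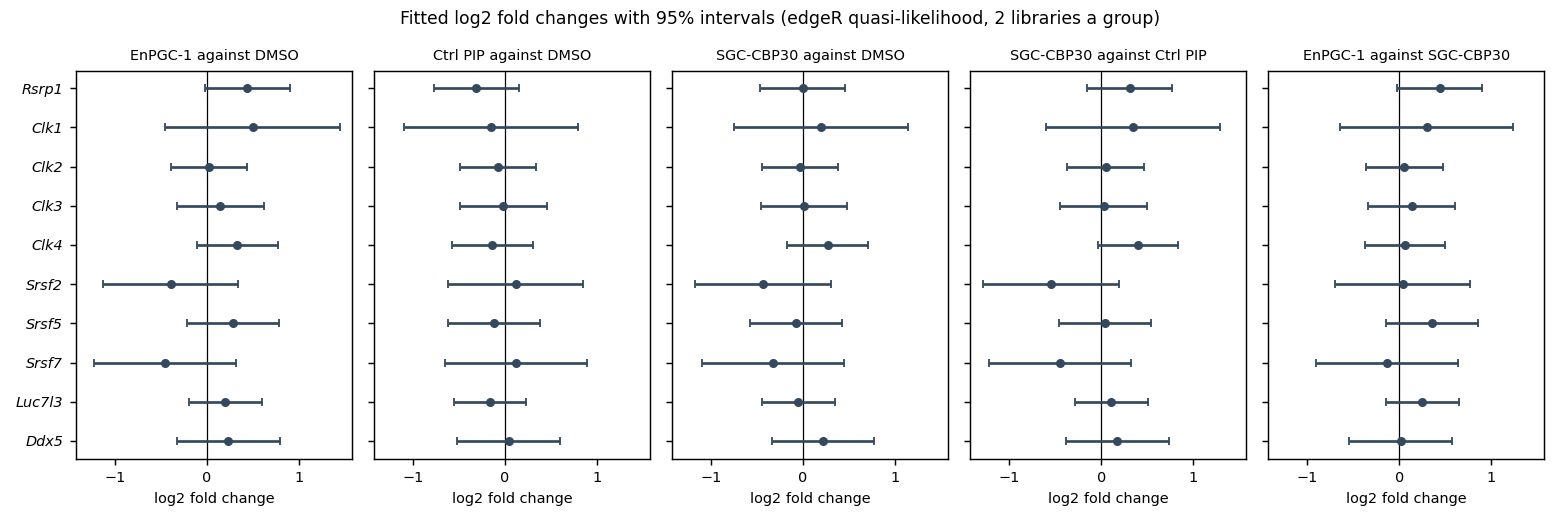
Fitted log2 fold change of each gene (points) with its 95% interval (bars) in the 5 tested comparisons, first group over second, from edgeR over all 8 libraries. Every interval includes 0; those of Rsrp1 for EnPGC-1 against DMSO and against SGC-CBP30 begin at -0.02.

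Across the set, 0 of the 10 genes passed edgeR's adjusted threshold of 0.05 in any of the 5 tested comparisons, 0 had an unadjusted p under 0.05, and DESeq2 called 0. Over all 16750 genes edgeR called 0% in each comparison. At an unadjusted p under 0.05 the shares of all genes were 2.61% for EnPGC-1 against DMSO, 0.597% for Ctrl PIP against DMSO, 4.39% for SGC-CBP30 against DMSO, 3.99% for SGC-CBP30 against Ctrl PIP and 2.03% for EnPGC-1 against SGC-CBP30. DESeq2 called 0.0827%, 0.00855%, 0.376%, 0.133% and 0.0792% of the genes it tested in the same order. The set was measured more precisely than most genes: the median distance from a fold change to the end of its interval was 0.49 log2 units against 1.00 over all genes. These comparisons share libraries and are not independent of each other, and all except SGC-CBP30 against DMSO share libraries with the contrast that chose the set.

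With EnPGC-1 against DMSO, 8 genes had a fitted value above 0 and 2 (Srsf2 and Srsf7) below, with a median of 0.22 against 0.00 over all genes. Both EnPGC-1 libraries exceeded both DMSO libraries for 5 genes (Rsrp1, Clk4, Srsf5, Luc7l3 and Ddx5), a layout found for 9.83% of all genes, and the reverse held for 0, against 9.24%. With Ctrl PIP against DMSO, 3 genes were above 0 and 7 below, with a median of -0.10 against -0.05 over all genes. Rsrp1, Clk2 and Luc7l3 were lower in both Ctrl PIP libraries (7.83% of all genes) and 0 genes were higher (8.34%). With SGC-CBP30 against DMSO, 4 were above 0 and 6 below, with a median of -0.02 against -0.03. Clk4 and Ddx5 were higher in both SGC-CBP30 libraries (16.2% of all genes) and Luc7l3 was lower (14.5%).

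SGC-CBP30 against Ctrl PIP had 8 genes above 0 and 2 below, with a median of 0.08 against 0.01. Rsrp1, Clk4, Luc7l3 and Ddx5 were higher in both SGC-CBP30 libraries (31.5% of all genes), and Srsf2 and Srsf7 lower (30.2%), so both shares are read against a high background. EnPGC-1 against SGC-CBP30 had 9 genes above 0 and 1 (Srsf7) below, with a median of 0.10 against 0.02. Rsrp1, Srsf5 and Luc7l3 were higher in both EnPGC-1 libraries (13.2%) and 0 genes were lower (14.7%). In the contrast that chose the set, EnPGC-1 against Ctrl PIP, 6 genes were higher and 2 lower in both libraries, beside 20.7% and 21.7% of all genes, and edgeR's unadjusted p was under 0.05 for 4.48% of all genes, with DESeq2 calling 0.191%. Its values were 0.76 for Rsrp1, 0.65 for Clk1, 0.47 for Clk4, 0.40 for Srsf5, 0.36 for Luc7l3, -0.51 for Srsf2 and -0.58 for Srsf7, with Clk2, Clk3 and Ddx5 between 0.11 and 0.19. Leaving out 1 of the 4 libraries gave 0.12 to 1.03 for Clk1, 0.43 to 0.50 for Clk4, 0.22 to 0.55 for Srsf5, 0.32 to 0.40 for Luc7l3, -0.70 to -0.36 for Srsf2 and -0.76 to -0.43 for Srsf7. The lowest values of Clk1 and Srsf5 came without EnPGC-1 replicate 2 and replicate 1, respectively. The ranges were -0.02 to 0.21 for Clk2, 0.04 to 0.27 for Clk3 and 0.12 to 0.27 for Ddx5. Both EnPGC-1 libraries were above all other 6 for Rsrp1, Srsf5 and Luc7l3, 3 of the 10 genes (3.29% of all genes). That count uses the EnPGC-1 and Ctrl PIP values that chose the set, so nothing is read from it.

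**Figure D3:**
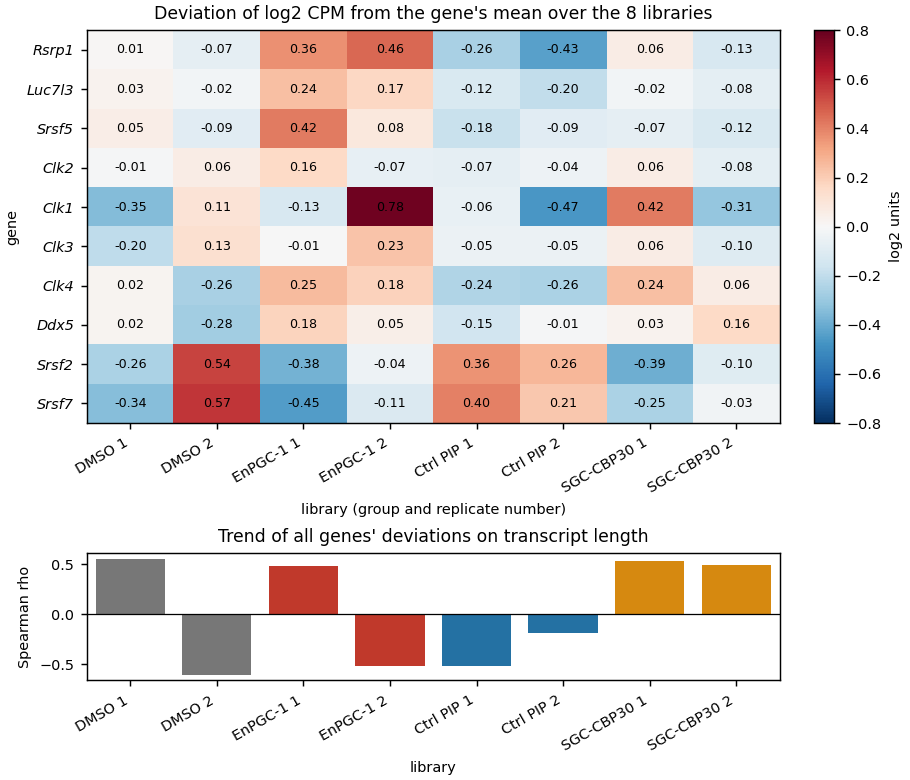
Deviation of log2 CPM from each gene's mean over the 8 libraries (upper panel, genes by libraries, red high and blue low, in log2 units), above the Spearman rho of all genes' deviations with transcript length in each library (lower panel). Srsf2 and Srsf7 reach 0.54 and 0.57 in DMSO replicate 2, where the length trend is -0.60, and Rsrp1 is at 0.36 and 0.46 in the 2 EnPGC-1 libraries, whose trends are 0.48 and -0.51.

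Some of the 10 genes moved together over the 8 libraries, given here as a description since the libraries share treatments and depth. Rsrp1 and Luc7l3 had a Pearson r of 0.96 in log2 CPM. The r of Rsrp1 was 0.80 with Clk4, 0.74 with Srsf5 and 0.66 with Clk1, values that ranked 183, 335 and 597 among 10219 genes. It was -0.57 with Srsf2 and -0.62 with Srsf7. Srsf2 and Srsf7 had an r of 0.97 with each other. Clk4 and Srsf2 had an r of -0.91, and Clk1 and Clk3 0.86. Other pairs hardly moved together, such as Clk1 with Clk2 (0.03) and Clk1 with Srsf5 (0.08). The range within the set was small: the median ratio of the highest to the lowest library was 1.47, against 1.79 for the 4395 genes with a mean of at least 50 CPM.

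**Figure D4:**
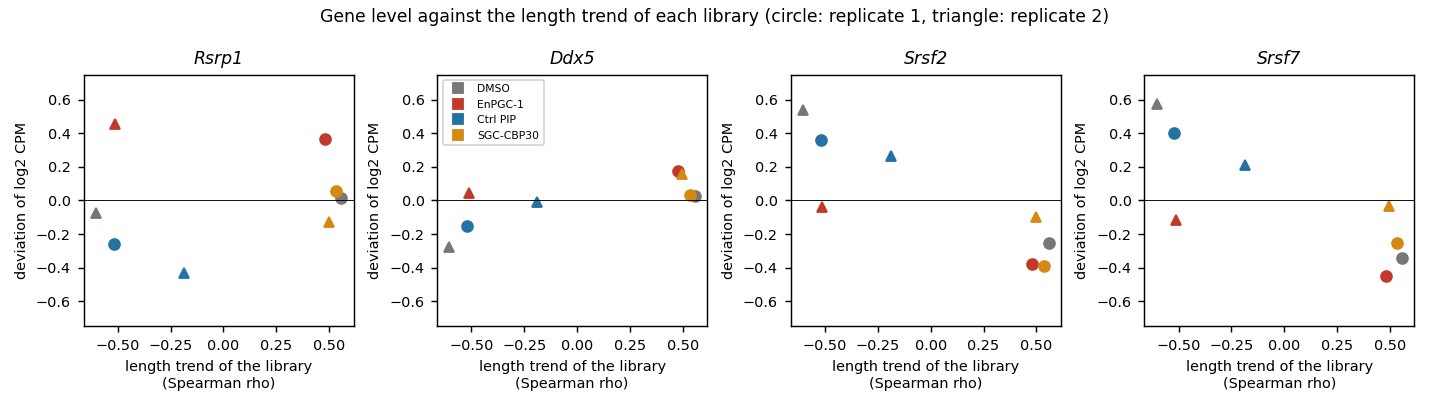
Deviation of log2 CPM from the gene's mean (vertical axis, log2 units) against the length trend of the library (horizontal axis, Spearman rho) for Rsrp1, Ddx5, Srsf2 and Srsf7, 1 point per library coloured by group (circle replicate 1, triangle replicate 2). Srsf2 (r = -0.86) and Srsf7 (r = -0.80) descend from left to right, Ddx5 (r = 0.74) ascends, and Rsrp1 (r = 0.16) has an EnPGC-1 library at the top on each side.

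Levels between genes were compared per kilobase of the longest annotated transcript, as mean CPM per kilobase over the 8 libraries. On this scale Ddx5 was highest with 433, followed by Srsf2 with 204, Srsf5 with 129, Rsrp1 with 123 and Srsf7 with 73.2. The kinases and Luc7l3 were lower: Clk1 was at 34.8, Luc7l3 at 27.7, Clk2 at 23.2, Clk3 at 21.6 and Clk4 at 18.5 CPM per kilobase. The range of Ddx5 over the libraries lay above that of Srsf2, and every other pair of neighbours in this order had overlapping ranges.

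The genes outside the set whose levels over the 8 libraries were most like those of Rsrp1, among 10210 genes with a mean of at least 5 CPM, were Gm12250 (r = 0.97), Trbv19 (0.97), Nt5m (0.96), Il11ra1 (0.95), Serpini1 (0.94), Smim14 (0.94), Rmdn1 (0.93) and Trbj2-7 (0.93). Luc7l3 had rank 4 when the set itself was included. Gm12250 was at 123 and 131 CPM with EnPGC-1 and 96.1 and 87.3 CPM with Ctrl PIP. Trbv19, a T cell receptor beta segment, was at 23.5 and 26.2 CPM with EnPGC-1 and 17.6 and 16.8 CPM with Ctrl PIP. These values only rank genes over 8 libraries that share treatments and depth.

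The wider splicing machinery was read from 9 lists holding 155 tested genes, the 10 genes included. The lists also hold 8 long noncoding RNAs, which are not splicing proteins. In the 5 tested comparisons edgeR called 0 of the 155, DESeq2 called 0, and 1 to 3 had an unadjusted p under 0.05. Over all genes tested, edgeR called 0%, DESeq2 0.00855% to 0.376%, and 0.597% to 4.39% had an unadjusted p under 0.05. Against DMSO, the noncoding RNAs supplied 1 of the 3 with EnPGC-1, the 1 gene with Ctrl PIP and 2 of the 3 with SGC-CBP30. They also supplied 1 of the 2 in SGC-CBP30 against Ctrl PIP, and 0 of the 1 in EnPGC-1 against SGC-CBP30. Of the 11 tested SR proteins, 3 were above 0 and 8 below with EnPGC-1 against DMSO (median -0.26), 6 above and 5 below in Ctrl PIP against DMSO (0.03), and 2 above and 9 below in SGC-CBP30 against DMSO (-0.14). Srsf3, the smallest SR protein, was at 244 and 627 CPM with DMSO, 189 and 363 CPM with EnPGC-1, 473 and 381 CPM with Ctrl PIP, and 258 and 345 CPM with SGC-CBP30. DMSO replicate 2 was again its highest library, and its log2 fold change for EnPGC-1 against DMSO was -0.66. Srsf9 measured 50.4 and 92.7 CPM with DMSO, 38.0 and 52.6 CPM with EnPGC-1, 66.8 and 63.2 CPM with Ctrl PIP, and 46.6 and 47.9 CPM with SGC-CBP30, with the same value of -0.66. Srsf1, a founding SR protein, was at 426 and 522 CPM with DMSO and 382 and 407 CPM with EnPGC-1 (-0.27). The values for EnPGC-1 against DMSO were -0.26 for Srsf4, -0.10 for Srsf6, -0.24 for Srsf10, 0.10 for Srsf11 and 0.78 for Srsf12, which had a mean near 1.14 CPM. The median of the SR protein list moved to 0.00 without DMSO replicate 2.

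Of the 14 splicing kinases tested, Clk1 to Clk4 among them, 12 were above 0 and 2 below with EnPGC-1 against DMSO (median 0.25), 3 above and 11 below in Ctrl PIP against DMSO (-0.11), and 10 above and 4 below in SGC-CBP30 against DMSO (0.22). Srpk1, a cytoplasmic SR protein kinase, was at 265 and 201 CPM with DMSO, 305 and 251 CPM with EnPGC-1, 217 and 260.3 CPM with Ctrl PIP, and 256 and 237 CPM with SGC-CBP30, and these ranges overlapped. Prpf4b, a kinase of the spliceosome, was at 203 and 113 CPM with DMSO, 243 and 139 CPM with EnPGC-1, 143 and 161 CPM with Ctrl PIP, and 186 and 194 CPM with SGC-CBP30, with replicate 1 above replicate 2 in DMSO and in EnPGC-1. The median of the kinases for EnPGC-1 against DMSO became -0.06 without EnPGC-1 replicate 1 and was 0.55 without DMSO replicate 1. Of 27 other RS-domain and speckle proteins, Rsrp1 included, 17 were above 0 and 10 below with EnPGC-1 against DMSO (median 0.10). The scaffold proteins Srrm2 and Son were high in DMSO replicate 1 and low in replicate 2: Srrm2 was at 1903 and 635 CPM and Son at 719 and 265 CPM in the 2 DMSO libraries. The LUC7 and U1 snRNP list had 5 of 10 above 0 (median 0.03). Luc7l2, a paralog of Luc7l3, was at 602 and 227 CPM with DMSO, 700.2 and 276 CPM with EnPGC-1, 279 and 334 CPM with Ctrl PIP, and 507 and 480.1 CPM with SGC-CBP30, so that, unlike Luc7l3, its 2 EnPGC-1 libraries differed widely. Snrnp70, a U1 protein, was at 531 and 499.7 CPM with DMSO and 531 and 484 CPM with EnPGC-1.

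The DEAD and DEAH box helicases had 3 of 14 above 0 with EnPGC-1 against DMSO (median -0.09), Ddx5 among them. Its paralog Ddx17 was at 790.0 and 322 CPM with DMSO, 904 and 487 CPM with EnPGC-1, 422 and 479 CPM with Ctrl PIP, and 725 and 683 CPM with SGC-CBP30. It differed more between DMSO libraries than Ddx5 did, and its log2 fold change for EnPGC-1 against DMSO was 0.32, while that of Dhx9, another helicase, was -0.22. All 25 hnRNP proteins, the RNA-binding partners and antagonists of SR proteins, had values below 0 with EnPGC-1 against DMSO (median -0.29), while 49.8% of all genes did. Without DMSO replicate 2, 16 of the 25 hnRNP values were below 0 and 9 above. With Ctrl PIP 7 of the 25 were below 0 and with SGC-CBP30 17. Hnrnpa2b1 was at 1044 and 1765 CPM with DMSO, 921 and 1257 CPM with EnPGC-1, 1487 and 1433 CPM with Ctrl PIP, and 1125 and 1425 CPM with SGC-CBP30, and Hnrnpa3 had a log2 fold change of -0.50 with EnPGC-1. In the core spliceosome 29 of 32 were below 0 with EnPGC-1 against DMSO (median -0.41) and 27 with SGC-CBP30 (-0.30), against 13 with Ctrl PIP (0.04). Sf3b1, the branch site factor, had 0.22 and Prpf8 -0.17 for EnPGC-1 against DMSO. Without DMSO replicate 2 the median of EnPGC-1 against DMSO became 0.04 for the core spliceosome and -0.11 for the hnRNP proteins. DMSO replicate 2 is also the library without which Srsf2 and Srsf7 changed sign in EnPGC-1 against DMSO.

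The nonsense-mediated decay and exon junction list, whose factors remove transcripts with premature stop codons, had 8 of 16 above 0 with EnPGC-1 against DMSO (median -0.02). Smg1, the decay kinase, was at 708 and 139 CPM with DMSO, 739 and 177 CPM with EnPGC-1, 204 and 273 CPM with Ctrl PIP, and 489 and 367 CPM with SGC-CBP30, with replicate 1 of DMSO and of EnPGC-1 far above replicate 2. Rnps1, an exon junction protein, was at 121 and 253 CPM with DMSO and 102 and 143 CPM with EnPGC-1. Of the 8 long noncoding RNAs 4 were above 0 with EnPGC-1 against DMSO (median 0.13). Neat1, the scaffold of paraspeckles, was at 240.5 and 219 CPM with DMSO, 342 and 480.4 CPM with EnPGC-1, 305 and 396 CPM with Ctrl PIP, and 445 and 475 CPM with SGC-CBP30, with both libraries of each compound above both of DMSO. Its log2 fold changes against DMSO were 0.84 (EnPGC-1), 0.61 (Ctrl PIP) and 1.00 (SGC-CBP30). None passed edgeR's test. Malat1, a speckle RNA, was at 669 and 245 CPM with DMSO and 923 and 432 CPM with EnPGC-1. Other list medians turned sign as well when libraries were left out. For EnPGC-1 against DMSO, the median became -0.19 for the RS-domain list and -0.16 for the LUC7 list without EnPGC-1 replicate 1, and -0.23 for the noncoding RNAs without replicate 1 of both DMSO and EnPGC-1. For the kinases it became 0.33 in Ctrl PIP against DMSO without DMSO replicate 1 and -0.02 in SGC-CBP30 against DMSO without DMSO replicate 2. For SGC-CBP30 against DMSO it became 0.07 for both the core spliceosome and the hnRNP proteins without replicate 2 of both DMSO and EnPGC-1.

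**Figure D5:**
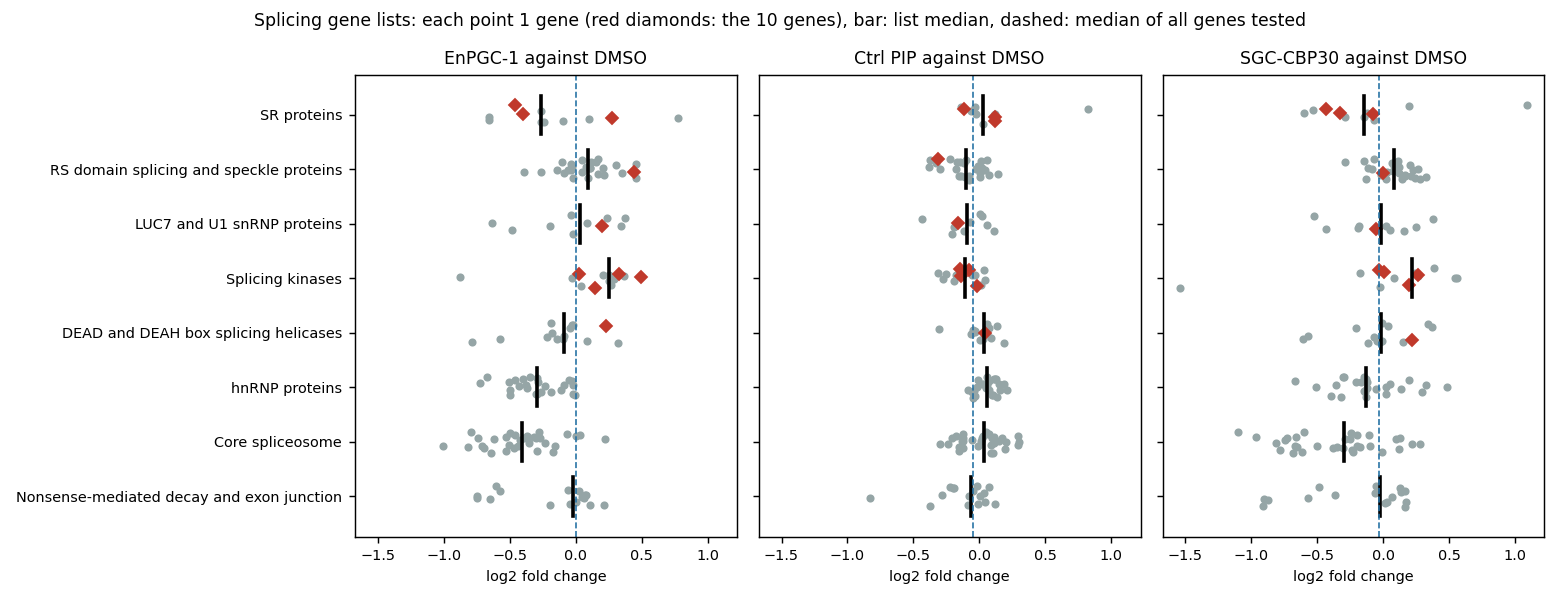
Fitted log2 fold change (horizontal axis) of each tested gene of 8 splicing lists (rows) against DMSO with EnPGC-1, Ctrl PIP and SGC-CBP30; red diamonds are the genes described here, grey points the other genes, black bars list medians and dashed lines the median of all genes. The hnRNP proteins lie below 0 with EnPGC-1 in 25 of 25 cases (16 of 25 without DMSO replicate 2), and the kinases have a median of 0.25 (-0.06 without EnPGC-1 replicate 1).

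The CD8 T cell markers summed to 4289 to 6060 CPM. The B cell list summed to 658 to 1034 CPM, most of it from Ighm, the heavy chain of IgM, at 627 to 975 CPM, while its other 9 markers summed to 59.0 and 43.1 CPM in the DMSO libraries, 60.2 and 48.6 CPM in those of EnPGC-1, 41.5 and 25.8 CPM in those of Ctrl PIP, and 24.7 and 19.3 CPM in those of SGC-CBP30. The CD4 T cell list summed to 14.8 to 38.7 CPM, the NK cell list to 26.9 to 127 CPM and the myeloid and dendritic list to 7.78 to 24.3 CPM, and the erythroid and platelet list to 7.05 to 78.9 CPM. EnPGC-1 replicate 1 had the highest myeloid and erythroid sums. Of these lists, 0 markers were at 0 in every library. Their part in the differences above was not tested. In bulk RNA, fewer cells of a type and less RNA per cell cannot be told apart.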

How the data were processed

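RNA was purified with an RNeasy kit and libraries came from a stranded mRNA kit (TruSeq), per the labels' protocols. The authors deposited whole-number counts for 45777 genes under Entrez IDs, 1 column per library, and regularized log2 values (rlog) of 16442 genes, which gave the gene symbols and entered only 1 alternative. HISAT2, StringTie, DESeq2 and mm10 appear in the submitters' processing notes without versions or roles; the counter's settings are not given in the sources used. There were 0 columns of other samples. Each header name of the rlog table stands 1 column left of its values.

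Counts were tested with edgeR 4.0.16 in R 4.3.3: TMM scaling, filterByExpr by group, robust quasi-likelihood fits of 4 group means over all 8 libraries (4 residual degrees of freedom), two-sided tests and Benjamini-Hochberg adjustment over the 16750 genes tested, at 0.05. Groups came from sample titles. CPM used TMM library sizes, and log2 CPM a prior count of 2. Correlations with Rsrp1 used genes with a mean of at least 5 CPM, and length trends used genes with a mean log2 CPM of at least 3.

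The genes and lists were chosen with earlier results of these data known. Named genes are the 10 genes, every other SR protein, the 2 genes with the highest mean CPM outside the 10 in each other splicing list, the 8 genes most correlated with Rsrp1, and the highest marker of a cell type list; Edc3, Mettl23, Mfsd11 and Rn18s-rs5 are named as overlaps or library properties. Alternatives were DESeq2 1.42.0 (its size factors and its test), no filter, a replicate block, the 4 libraries of a comparison alone, limma 3.58.1 on the rlog values, each library left out, and 3 kinds added after seeing the data (fits without replicate 1, or without replicate 2, of both DMSO and EnPGC-1, an exchanged block, and length and GC offsets with mgcv 1.9.3).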

Additional observations from a re-analysis of the deposited data

How the results depend on the processing

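Of 900 alternative values, 831 kept direction and side of the threshold, 64 changed sign and 5 crossed the threshold. The count of called genes among the 10 was 0 under DESeq2 size factors, DESeq2's test, no filter, the rlog values and every left-out library (where a group left with 1 library is assumed to vary like the others). With only the 4 libraries of SGC-CBP30 against Ctrl PIP in the fit it was 1 (Srsf2, -0.55, edgeR adjusted p 0.0385), in a fit that called 2470 genes, 15.8% of those tested. The remaining crossings came from fits added after the data were seen, without replicate 1 or without replicate 2 of both DMSO and EnPGC-1. These fits keep 1 library in each of those groups, so their spread comes only from Ctrl PIP and SGC-CBP30. The median over genes of the variance between replicates, relative to sampling noise, was 8.24 with Ctrl PIP and 8.49 with SGC-CBP30. It was 113 with DMSO and 63.6 with EnPGC-1. A single library is thus judged by the spread of other groups, and only fold changes are given. Without replicate 1 of both, SGC-CBP30 against DMSO was -0.78 for Srsf2 and -0.71 for Srsf7. SGC-CBP30 against Ctrl PIP was -0.55 for Srsf2 in that fit. Without replicate 2 of both, Ctrl PIP against DMSO was 0.66 for Srsf7. The fit on the 4 libraries of SGC-CBP30 against Ctrl PIP also takes its spread only from these 2 groups. The main fit pools the spread of all 4 groups, DMSO and EnPGC-1 included. The part of this difference in spread in the crossings was not tested. No other alternative crossed the threshold for any of the 10 genes.

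Signs also turned elsewhere. Without replicate 1 of both DMSO and EnPGC-1 the values were -0.12 for Clk2 in EnPGC-1 against DMSO, 0.012 for Clk4, -0.23 for Srsf2 and -0.26 for Srsf7 in Ctrl PIP against DMSO, 0.043 for Rsrp1, -0.011 for Clk1 and -0.14 for Clk3 in SGC-CBP30 against DMSO and -0.060 for Clk2, 0.024 for Srsf7 and -0.051 for Ddx5 in EnPGC-1 against SGC-CBP30. Without their replicate 2 they were 0.11 for Clk1, 0.16 for Clk3 and -0.095 for Ddx5 in Ctrl PIP against DMSO, 0.00637 for Clk2, 0.020 for Srsf2 and 0.20 for Srsf7 in SGC-CBP30 against DMSO and -0.22 for Clk1 and -0.14 for Srsf2 in EnPGC-1 against SGC-CBP30. With the length and GC offsets they were 0.052 for Rsrp1 and -0.096 for Clk3 in SGC-CBP30 against DMSO, -0.036 for Clk3 and -0.058 for Luc7l3 in SGC-CBP30 against Ctrl PIP and -0.027 for Srsf2 in EnPGC-1 against SGC-CBP30. With no filter the value was 0.010 for Rsrp1 in SGC-CBP30 against DMSO. Leaving out single libraries turned the sign of these log2 fold changes, given with their lowest and highest values. For EnPGC-1 against DMSO they were Clk1 (-0.030 to 0.89), Clk2 (-0.083 to 0.13), Srsf2 (-0.72 to 0.054) and Srsf7 (-0.83 to 0.067). Ctrl PIP against DMSO gave Clk1 (-0.35 to 0.099), Clk3 (-0.16 to 0.16), Clk4 (-0.27 to 0.028), Srsf2 (-0.21 to 0.57), Srsf7 (-0.25 to 0.65) and Ddx5 (-0.10 to 0.22). SGC-CBP30 against DMSO gave Rsrp1 (-0.097 to 0.094), Clk1 (-0.21 to 0.52), Clk2 (-0.099 to 0.042), Clk3 (-0.13 to 0.18), Srsf2 (-0.77 to 0.018), Srsf5 (-0.15 to 0.00826) and Srsf7 (-0.70 to 0.20). SGC-CBP30 against Ctrl PIP gave Clk1 (-0.057 to 0.66), Clk2 (-0.020 to 0.11), Clk3 (-0.055 to 0.10) and Srsf5 (-0.019 to 0.084). EnPGC-1 against SGC-CBP30 gave Clk1 (-0.23 to 0.70), Clk2 (-0.058 to 0.16), Clk4 (-0.021 to 0.16), Srsf2 (-0.15 to 0.20), Srsf7 (-0.31 to 0.026) and Ddx5 (-0.050 to 0.087).

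Replicate numbers are shared across groups, but the labels do not say that they pair samples. Across genes, the difference of replicate 1 and 2 correlated at 0.67 between DMSO and EnPGC-1, -0.25 between DMSO and Ctrl PIP, -0.23 between EnPGC-1 and Ctrl PIP, 0.23 between SGC-CBP30 and either DMSO or EnPGC-1, and -0.04 between Ctrl PIP and SGC-CBP30. The replicate block called 0 of the 10 genes and 0 of all genes in each comparison, and so did the added block with the Ctrl PIP numbers exchanged. With 2 libraries a group, the 95% interval of EnPGC-1 against DMSO, before any adjustment, reached from 0.40 log2 units (Luc7l3) to 0.95 (Clk1) to each side of the value.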
